A study of Saccharomyces cerevisiae with 14 samples.

Results

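The ribosomal DNA (rDNA) of budding yeast lies on chromosome XII. The sacCer3 reference holds 2 of its repeats, each with a 35S gene, which encodes the precursor of the large ribosomal RNAs, and a 5S gene. The members described here are those 4 genes, RDN37-1, RDN37-2, RDN5-1 and RDN5-2, of 6431 nuclear genes in the RefSeq R64 table. They were chosen by position, and every peak between XII 451000 and 491000 was examined, a window that holds 41 annotated genes. Across 14 Rad52 libraries none of the 4 genes, and none of the spacers between them, carried a peak. The peaks of the window lay to the right of the repeats, on a Ty1 retrotransposon and at YLR162W and RRT15, next to the last 5S copy.

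Rad52 is a recombination protein that gathers on broken or single-stranded DNA, and the series used its chromatin immunoprecipitation and sequencing to read damage from DNA-RNA hybrids. The libraries of strain background 288C were h1D-h2D Sen1-AID (2 libraries), h1D-h2D Top1-AID (2), Sen1-AID (2), Top1-AID (1), h1D-h2D (2) and WT (2), and all of them, WT included, are labelled as treated with auxin, per the protocol 0.5 µM for 4 h. AID is a degron that lets auxin trigger the breakdown of the tagged protein. The h1D-h2D strain was read as lacking the RNase H genes RNH1 and RNH201, which the design names. For h1D-h2D Top1-AID the genotype label reads h1D-h2D_Top1 and the title carries AID. The libraries of background JKM were Gal-HO galactose (2), grown with 2% galactose so that the HO endonuclease is made, and Gal-HO dextrose (1). Nothing in the labels says that replicates came from separate cultures, so p-values measure only the spread between these libraries, which may be technical.

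RNA polymerase I transcribes the 35S gene at a very high rate, and RNA polymerase III transcribes the 5S gene from the opposite strand within the spacer. The cell carries the repeat in a long tandem array, of which the reference shows only a small part. The spacer holds a replication fork barrier and a replication origin, and recombination there changes the number of repeats. Top1 relieves the torsion of rDNA transcription, RNase H removes the RNA of hybrids there, and Sen1, a helicase, acts in transcription termination. Such hybrids are well known at the rDNA.

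The peak lists held 254 to 731 nuclear peaks, and the shortest were those of h1D-h2D Sen1-AID (286 and 305 peaks) with those of h1D-h2D Top1-AID (282 and 254 peaks). These 4 libraries are called the combined mutants. The score of a peak is the authors' own, on a scale that is not stated, and it was used only as a rank within its list: a percentile of 100 is the top peak. Read depth is unknown, so lists could not be corrected for it, and the 2 libraries at most per strain limit what can be compared.

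The 35S genes came first. RDN37-1 (XII 451575–458432) and RDN37-2 (XII 460712–467569), on the reverse strand, each span 6858 bp and contain the 18S, 5.8S and 25S rRNA genes RDN18, RDN58 and RDN25 with their transcribed spacers. In every library the number of bases of either gene under a peak was 0. The same held for TAR1 (XII 454696–455070), a coding gene inside the 25S region on the opposite strand, and for YLR154C-G in the other repeat. The 5S genes RDN5-1 (XII 459676–459796) and RDN5-2 (XII 468813–468931) were also at 0 bp in all 14 lists. So were the 3 spacers, which measure 1243, 915 and 1243 bp and lie between RDN37-1 and RDN5-1, between RDN5-1 and RDN37-2, and between RDN37-2 and RDN5-2. The first and the third lie upstream of a 35S start.

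**Figure D1:**
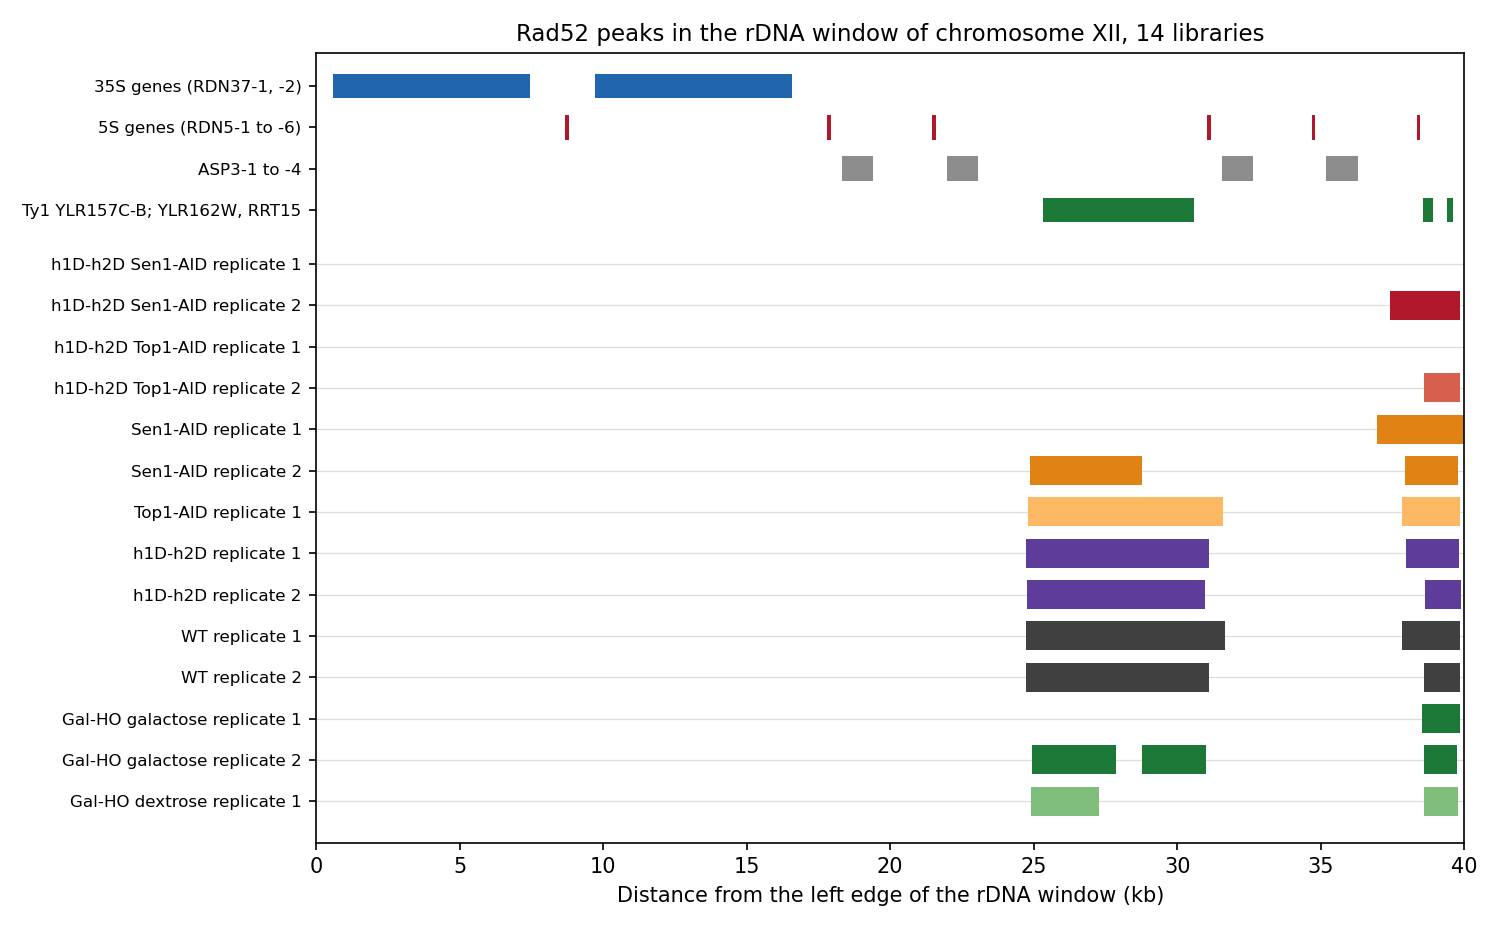
Peaks of each library (coloured bars, colour by group) in the rDNA window, with distance from the left edge of the window in kb on the x axis and genes drawn to scale in the top 4 rows. Both 35S genes and the first 3 of the 5S genes lie where no library has a bar, and the bar of Sen1-AID replicate 1 at the right runs past the edge of the window.

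A gene without a peak was common in these data. Of all nuclear genes, 3657 (56.9%) had no peak in any of the 14 lists, so the profile of RDN37-1 over libraries was shared with 3656 other genes and singles out none of them. Among the 19 other genes at least as long as RDN37-1, 11 had no peak in any list. The absence at RDN37-1 and RDN37-2 is therefore near the background for genes of that length. That comparison does not cover RDN5-1, RDN5-2 or the spacers, which are far shorter. Of 275 nuclear tRNA genes, which share polymerase III with RDN5-1 and RDN5-2, only 9 (3.27%) had no peak in any list. Among 6 further polymerase III genes it was 2.

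The peak-free stretch around the repeats was long, but by its definition it cannot be shorter than the 17357 bp of both repeats. Its rank among all stretches, shorter ones included, was thus partly set in advance. Taking all lists together the stretch ran from XII 442056 to 475725, 33.7 kb, and 27 of the 954 stretches between neighbouring peaks were longer. Its left neighbour, over GID11, STM1 and PCD1, came from Sen1-AID replicate 1 alone. In single lists the stretch measured 124 and 118 kb in h1D-h2D Sen1-AID and 337 and 205 kb in h1D-h2D Top1-AID. It was 45.9 and 101 kb in Sen1-AID, 104 kb in Top1-AID and 104 kb in both h1D-h2D libraries, against 104 kb in both WT libraries. In Gal-HO galactose it was 118 and 51.1 kb, against 105 kb in Gal-HO dextrose. All 4 combined mutants lay above all 7 other auxin libraries, and their lists had the fewest peaks and the longest median stretches, 21.2 to 23.7 kb against 9.49 to 16.5 kb. How often other stretches separate the groups was not computed. A peak on the Ty1 element bounded the stretch on the right in 6 of those 7 libraries and was absent from the combined mutants. The separation is therefore not a result apart from that absence. In h1D-h2D Top1-AID replicate 1 and Gal-HO galactose replicate 1 no other stretch of the list was longer, and in Sen1-AID replicate 1 and Gal-HO galactose replicate 2 there were 24 longer ones.

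**Figure D2:**
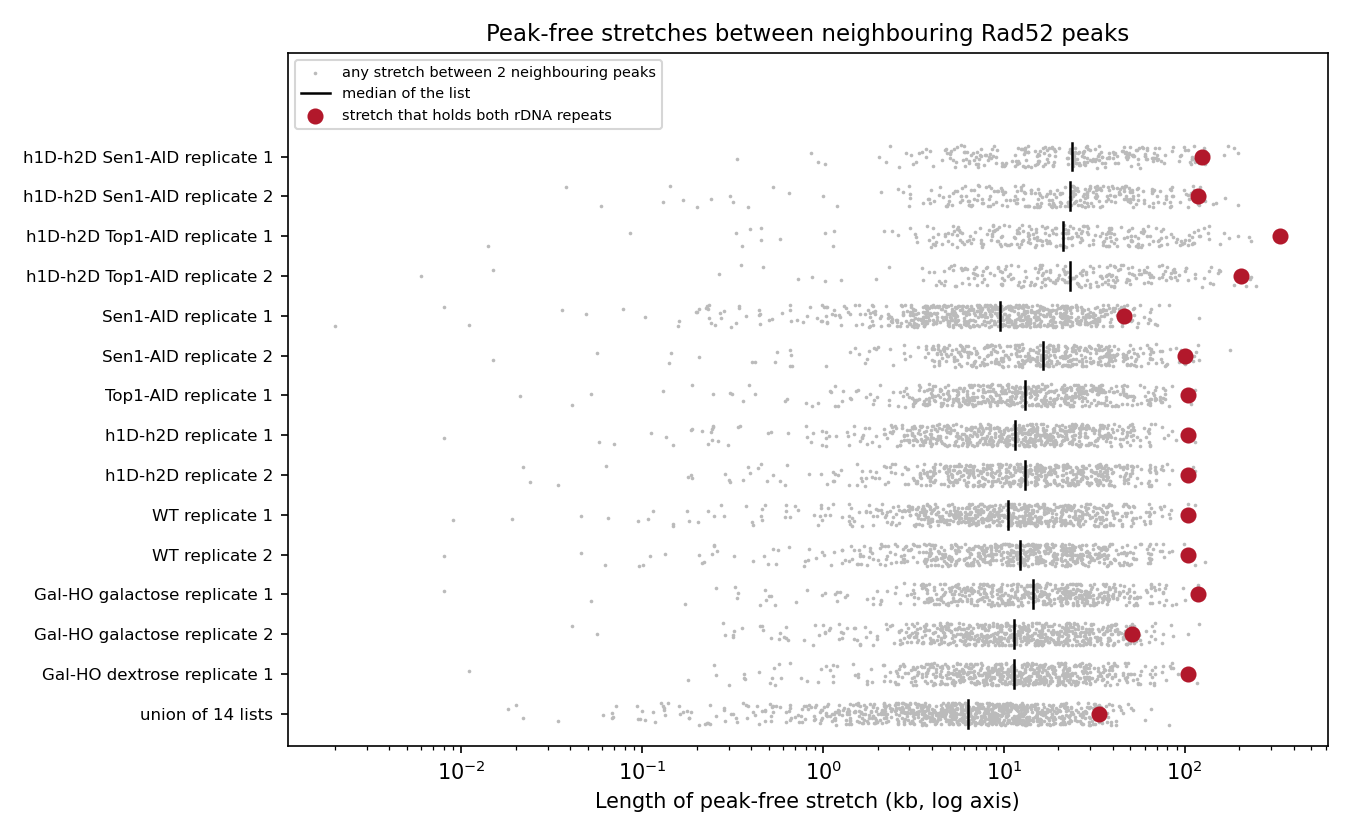
Length in kb, on a log axis, of every stretch between neighbouring peaks (grey points), with the median of each list (black tick) and the stretch that holds both rDNA repeats (red). The red point lies between 45.9 and 337 kb in the 14 lists and at 33.7 kb in their union.

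Beyond the repeats, the reference carries 4 more 5S copies, RDN5-3 to RDN5-6, and RDN5-2 to RDN5-5 each have to their right a copy of ASP3, which encodes an asparaginase of the cell wall. RDN5-2 to RDN5-3, RDN5-4 to RDN5-5 and RDN5-5 to RDN5-6 are each 3652 bp apart, start to start, and ASP3-1 to ASP3-2 and ASP3-3 to ASP3-4 have the same distance. RDN5-3 and RDN5-4 are 9580 bp apart, with the Ty1 element, which carries YLR157C-B and YLR157C-A, between them. The 2 repeats themselves are 9137 bp apart.

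RDN5-3 (XII 472465–472583) and RDN5-5 (XII 485697–485815) had no peak in any library. RDN5-4 (XII 482045–482163) was reached by the right end of the Ty1 peak in 4 libraries. In Top1-AID all 119 bp were covered and in h1D-h2D replicates 1 and 2, 79 and 0 bp, against 119 and 57 bp in WT replicates 1 and 2. The other 9 libraries, the combined mutants among them, had 0 bp. RDN5-6 (XII 489349–489469) was under the peak that also covers RRT15, in full, in h1D-h2D Sen1-AID replicate 2, both Sen1-AID libraries, Top1-AID, h1D-h2D replicate 1 and WT replicate 1, and not covered in the other 8. Both of these 5S copies were thus covered by peaks that extend over other genes. The narrowest peak of the window measured 1164 bp, far more than a 5S gene, so no peak could be confined to such a gene. Of the ASP3 copies only ASP3-3 was touched, at 3.40% of its length in Top1-AID and 9.37% in WT replicate 1.

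**Figure D3:**
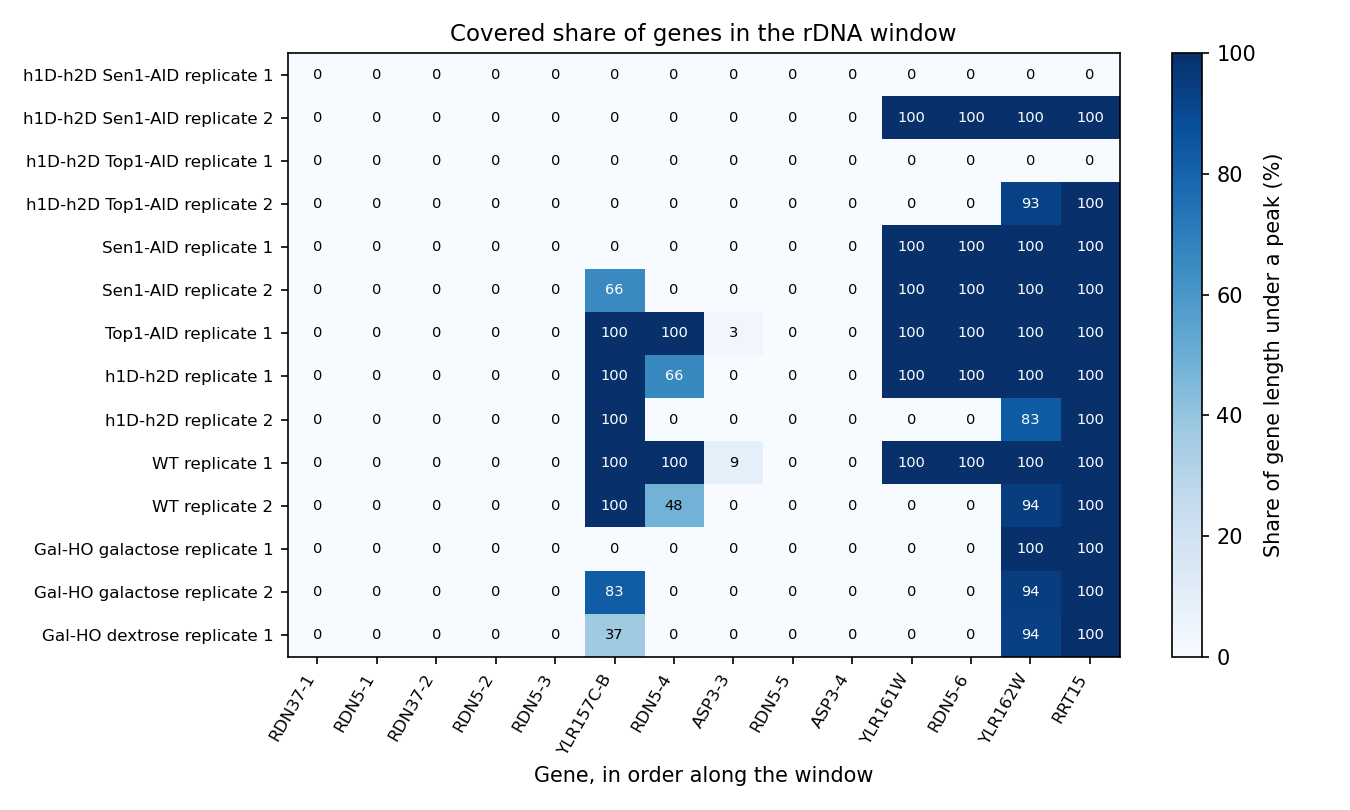
Share of each gene's length under a peak in percent (colour and number), genes in order along the window and libraries in rows. The columns of RDN37-1, RDN5-1, RDN37-2, RDN5-2, RDN5-3, RDN5-5 and ASP3-4 hold 0 in every row, and RRT15 holds 100 in 12 of 14.

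The peak at YLR162W and RRT15 marked the right end of the window. Of the 8 libraries with peaks at both sites, it had the higher score in 6. YLR162W (XII 489573–489929) is an uncharacterised reading frame, and RRT15 (XII 490406–490594) is named for regulator of rDNA transcription. The peak was present in 12 of 14 libraries, all 12 sharing the 1124 bp of XII 489633–490756. It was absent from h1D-h2D Sen1-AID replicate 1 and h1D-h2D Top1-AID replicate 1.

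The rank of this peak differed widely between libraries. It was the top peak of the whole list in h1D-h2D Top1-AID replicate 2 (rank 1 of 254), Sen1-AID replicate 2 (rank 1 of 454) and h1D-h2D replicate 2 (rank 1 of 578). It ranked 30 of 305 in h1D-h2D Sen1-AID replicate 2, 269 of 731 in Sen1-AID replicate 1, 18 of 551 in Top1-AID and 101 of 634 in h1D-h2D replicate 1, against 113 of 666 and 18 of 617 in WT replicates 1 and 2. It ranked 5 of 544 and 305 of 637 in Gal-HO galactose, against 210 of 637 in Gal-HO dextrose. Replicates of 1 strain thus stood far apart: as percentiles, Sen1-AID had 63.3 and 100, h1D-h2D 84.2 and 100, WT 83.2 and 97.2, and Gal-HO galactose 99.3 and 52.3. The ranges of Sen1-AID and h1D-h2D overlapped that of WT. With a missing peak set at 0, replicate 2 had the higher percentile in all 5 auxin strains with 2 libraries, and both libraries without the peak are a replicate 1. This order was picked out after the values were seen, and how often other peaks show it was not computed. What the replicate number stands for is not given in the sources used here, and its part in these ranks was not tested.

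The right end of the peak was nearly fixed, and the left end was not. Without Sen1-AID replicate 1 the right ends of 11 libraries fell within 115 bp, at XII 490756 to 490871. In Sen1-AID replicate 1 the peak ended at 491067. The left end lay at 948 bp before the start of RDN5-6 in h1D-h2D Sen1-AID replicate 2 and 249 bp past it in h1D-h2D Top1-AID replicate 2. It lay 1398 and 408 bp before that start in Sen1-AID replicates 1 and 2, 513 bp before it in Top1-AID, and 385 bp before and 284 bp past it in h1D-h2D replicates 1 and 2, against 532 bp before and 244 bp past it in WT replicates 1 and 2. In the Gal-HO strain it lay 198 and 244 bp past it with galactose, against 247 bp with dextrose. The left end thus moved across RDN5-6 within h1D-h2D and within WT, and it reached farther left in replicate 1 of Sen1-AID, h1D-h2D and WT alike. Peaks of the whole list were also wider in the replicate that reached over the 5S gene: their median width was 2066 against 1505 bp in h1D-h2D replicates 1 and 2, and 2196.5 against 1766 bp in WT replicates 1 and 2. In Gal-HO, however, the medians were 1550.5 and 1996 bp with galactose and 1950 bp with dextrose, and none of these peaks reached RDN5-6. Sen1-AID replicate 2, with a median of 1375.5 bp, had the narrowest peaks of all lists, and its peak did reach over RDN5-6. The part of peak width in this difference was not tested.

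**Figure D4:**
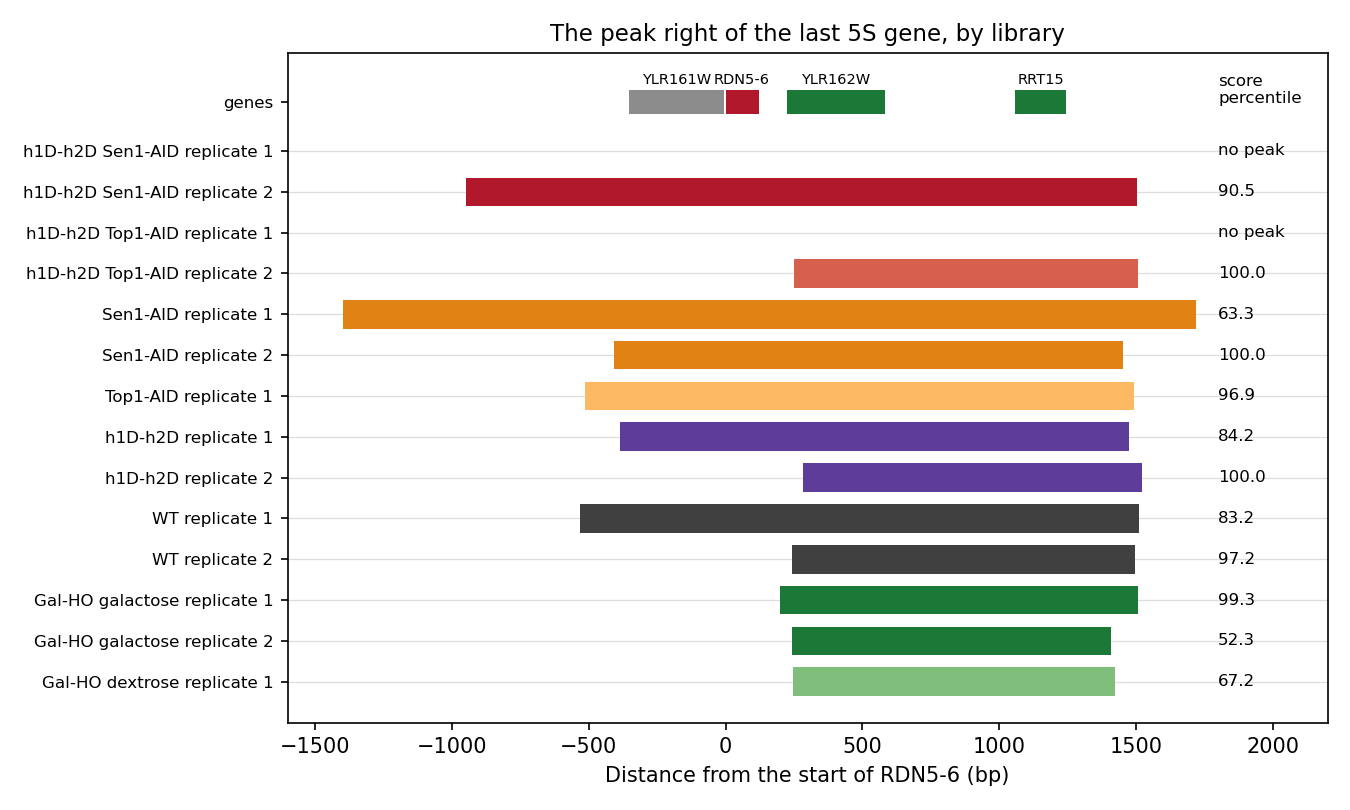
The peak at YLR162W and RRT15 in each library (bars), with distance in bp from the start of RDN5-6 on the x axis, genes at the top and the score percentile of the peak at the right. The 12 bars share their right edge to within 115 bp, apart from Sen1-AID replicate 1, and their left edges fall on both sides of RDN5-6.

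The second site was the Ty1 element. Its gene YLR157C-B (XII 476333–481601) encodes the Gag-Pol protein and YLR157C-A (XII 480279–481601) the Gag protein of the element. No combined mutant had a peak there, against 6 of the 7 other auxin libraries. The covered share of YLR157C-B was 0% in all 4 combined mutants. It was 0 and 65.6% in Sen1-AID replicates 1 and 2, and 100% in Top1-AID and in both h1D-h2D libraries, as in both WT libraries. In Gal-HO galactose it was 0 and 82.8%, in the second case under 2 peaks, against 37.1% in Gal-HO dextrose. The percentile of the peak was 64.5 in Sen1-AID replicate 2, 69.1 in Top1-AID and 91.0 and 69.2 in h1D-h2D, against 75.5 and 72.9 in WT. In Gal-HO it was 74.3 and 54.5 for the 2 peaks of galactose replicate 2, against 49.0 in dextrose. Of 34 Ty loci, defined as coding loci of 4 kb or more whose name ends in a hyphen and a letter, 2 had a peak in no combined mutant and in at least 6 of the 7 others, YLR157C-B included. Reads of near-identical copies can be placed at any of them, so a peak at 1 Ty copy, 5S copy or ASP3 copy is uncertain as to its copy. No sequences were compared here, so whether the peak at YLR162W and RRT15 lies on sequence shared with the rDNA repeats or their spacers was not tested.

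The comparison of the combined mutants with the other auxin libraries asked whether loss of RNase H together with Sen1 or Top1 moved Rad52 at the locus. The window had 0 and 2452 bp under peaks in h1D-h2D Sen1-AID and 0 and 1260 bp in h1D-h2D Top1-AID. It had 3050 and 5789 bp in Sen1-AID, 8804 bp in Top1-AID and 8256 and 7454 bp in h1D-h2D, against 8965 and 7608 bp in WT. All 4 combined mutants lay below all 7 others. In the covered share of single genes, a different measure, they did so at 8.02% of the genes tested, and no such rate was computed for windows of this size. The separation in the window was lost at a stricter score limit, with peaks above the pooled median score only, where Sen1-AID replicate 2 had 1860 bp. It was also lost with equal list lengths, the 254 best-scoring peaks of each list, where Sen1-AID replicate 1 had 0 bp. Both values lay below the 2452 bp of h1D-h2D Sen1-AID replicate 2. The means were 928 ± 1177 bp (SD, n = 4) in the combined mutants and 7132 ± 2090 bp (SD, n = 7) in the others. The whole of that length was outside the 35S genes, RDN5-1, RDN5-2 and their spacers. Genome-wide the combined mutants also had fewer peaks, touching 8.85 to 12.9% of nuclear genes against 15.7 to 29.6% in the others.

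Tested gene by gene over the 2457 genes with a peak in at least 1 auxin library, the covered share fell past the adjusted threshold at 174 genes (7.08%) and rose at 0 (0.0%, with 24 at an unadjusted p under 0.05). Each gene was tested by an exact two-sided permutation test with Benjamini-Hochberg adjustment. The count of 174 was 0 at the stricter score limit, with equal list lengths, with at least 50% of a gene required to be covered, and with the replicate number as a block. Leaving out Sen1-AID replicate 2 gave 352 genes, and leaving out any other auxin library gave 0. With all auxin libraries the smallest possible p was 0.00303 (exact permutation, 330 splits), and the smallest adjusted p reached was 0.0428. Fewer splits remain with a library left out or with the block, so the smallest possible p is larger there. A count of 0 in those cases cannot be told apart from the coarser test. Of the 41 genes in the window 11 were among those tested, the 4 members were not, having no peak, and 0 of the 11 passed. YLR157C-B averaged 0 ± 0% in the combined mutants (SD, n = 4), against 80.8 ± 37.9% in the 7 others, a difference of -80.8 points (exact permutation p 0.0152, adjusted p 0.104). RRT15 averaged 50 ± 57.7% and 100 ± 0%, a difference of -50.0 points (exact permutation p 0.109, adjusted p 0.27). RDN5-4 differed by -44.9 points (exact permutation p 0.152, adjusted p 0.347) and RDN5-6 by -46.4 points (exact permutation p 0.242, adjusted p 0.462). The median difference over the 11 window genes was -48.5 points and over all genes tested -11.6 points, but the 11 lie under only 2 peaks. An unadjusted p under 0.05 with a lower share was reached by 575 genes (23.4%), and in 197 genes (8.02%) all 4 combined mutants lay below all 7 others. Of the 11 window genes, that p was reached only by YLR157C-B, by YLR157W-D under the same peak (exact permutation p 0.0182) and by YLR162W (exact permutation p 0.0455). The differences at single genes of the window do not stand out against these shares, and the covered length of the window was not set against other windows.

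Sen1 depletion, with or without RNase H, was compared in 4 libraries against the 7 auxin libraries with Sen1. RDN5-6 was covered in 3 of the 4 Sen1-depleted libraries and in 3 of the 7 others, at 75.0% and 42.9% on average, a difference of 32.1 points (exact permutation p 0.545, adjusted p 0.897). The share at YLR157C-B was 16.4% against 71.4%, a difference of -55.0 points (exact permutation p 0.0909, adjusted p 0.722). RRT15 was covered in 75.0% and 85.7% of the libraries. No gene of 2457 passed in either direction (0.0%), with 88 higher (3.58%) and 24 lower (0.977%) at an unadjusted p under 0.05.

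Top1 depletion was compared in 3 libraries against the 8 auxin libraries with Top1. RRT15 was covered in 2 of 3 libraries and 7 of 8, and RDN5-6 in 1 of 3 and 5 of 8 (difference -29.2 points, exact permutation p 0.545, adjusted p 1.0). YLR157C-B averaged 33.3% and 58.2% (adjusted p 1.0, exact permutation). No gene passed in either direction (0.0%), with 8 higher (0.326%) and 64 lower (2.6%) at an unadjusted p under 0.05 of the exact test. With 165 splits the smallest possible p of that test was 0.00606, so few genes at this limit could not pass.

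Loss of RNase H was compared in 6 libraries against 5 that keep it. RRT15 was covered in 4 of 6 and 5 of 5 libraries (difference -33.3 points, exact permutation p 0.455, adjusted p 0.676), and the 2 without it were combined mutants. RDN5-4 averaged 11.1% and 49.6% (difference -38.5 points, exact permutation p 0.152, adjusted p 0.608), and RDN5-6 33.3% and 80.0% (adjusted p 0.638, exact permutation). No gene passed in either direction (0.0%), with 10 higher (0.407%) and 103 lower (4.19%) at an unadjusted p under 0.05. In h1D-h2D alone, both peaks of the window were present in both libraries, as in WT.

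HO, induced by galactose, cuts the mating-type locus on another chromosome. In galactose 1309 and 6320 bp of the window were covered, against 3543 bp in dextrose. With 1 dextrose library there is no test, and the galactose libraries lay on both sides of it. Neither RDN5-4 nor RDN5-6 was covered in these 3 libraries, and RRT15 was covered in all of them.

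Other repeated or polymerase III genes were set beside the rDNA, and some of them carried peaks in these lists. CUP1-1 and CUP1-2, which encode copper metallothioneins and form another tandem array, were fully covered in all 14 libraries, at a mean percentile of 91.6. Of the 34 Ty loci 33 had a peak in at least 1 list. Of 275 nuclear tRNA genes, which share polymerase III with the 5S genes, a peak touched 100 to 122 in the combined mutants, 171 to 248 in the other auxin libraries and 177 to 206 in the Gal-HO libraries. As shares these were 36.4 to 44.4%, 62.2 to 90.2% and 64.4 to 74.9%. Over all nuclear genes the shares were 8.85 to 12.9%, 15.7 to 29.6% and 18.9 to 24.8%, also lowest in the combined mutants. Among 6 further polymerase III genes, RPR1, the RNA of RNase P, had a peak in 14 libraries, SNR52 in 12, ZOD1 in 10 and SCR1, the RNA of the signal recognition particle, in 3, while SNR6 and RNA170 had none. ZOD1 was covered in 0 of 4 combined mutants and 7 of 7 others and was the only one of the 4 that could be tested to pass (exact permutation p 0.00303, adjusted p 0.0428), where 7.08% of all genes did. The call did not hold with at least 50% of the gene required to be covered (exact permutation, adjusted p 0.0555) or with the replicate number as a block (adjusted p 0.078, exact permutation). At the stricter score limit and with equal list lengths ZOD1 had no peak left in any auxin library and was not tested. With a library left out its adjusted p (exact permutation) lay between 0.0331 and 0.0984, under 0.05 only without Sen1-AID replicate 2. Fewer splits remained there and with the block, which raises the smallest possible p. How reads that match several places were treated is not given in the sources used here, nor is whether an input library was used, and the part of either in the absence of peaks on the rDNA repeats was not tested.

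**Figure D5:**
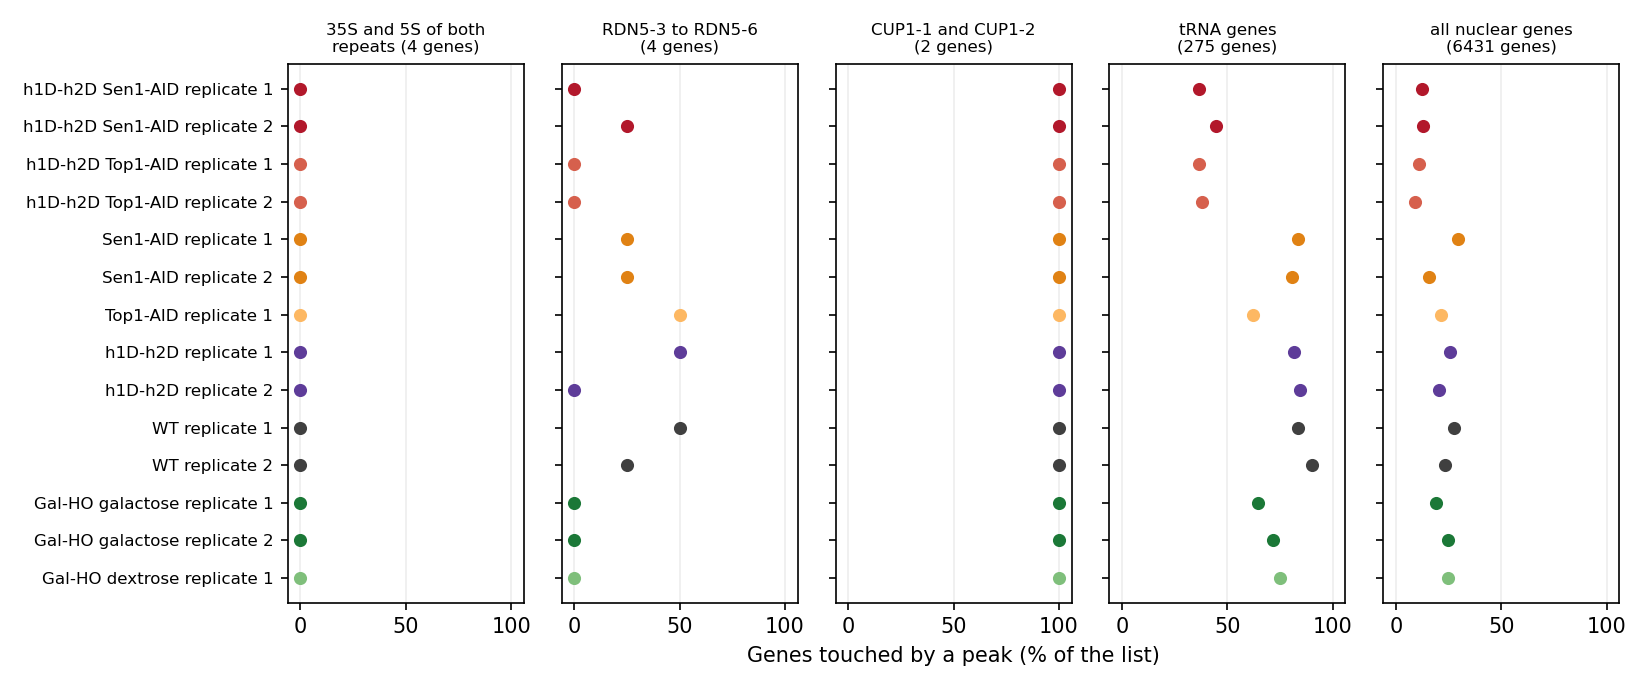
Genes touched by a peak in each library, as a percentage of the list named above each panel (points, colour by group). The 4 rDNA genes are at 0 and the CUP1 pair at 100 in all 14 libraries. The tRNA genes lie lower in the 4 combined mutants than in the other 10 libraries, and so do all nuclear genes.

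Genes for proteins that transcribe or organise the rDNA were also looked at, as a list of 28 polymerase I and rDNA factors. Of these, 14 had a peak in at least 1 library, and 3 to 5 did in each combined mutant, against 3 to 9 in each of the other auxin libraries. TOF2, whose product holds the phosphatase Cdc14 in the nucleolus, and RPA34, a subunit of polymerase I, had one in all 14. The peak at RPA34 also covered SNR128 and SNR190, which are snoRNA genes. REB1, whose product binds the rDNA near the end of the 35S gene, had a peak in 12 libraries, CDC14 in 7 and RNT1 in 10. Only part of some of these genes was covered, at most 27.3% of REB1, 6.16% of CDC14 and 24.0% of TOF2. RNT1 encodes the RNase III that cleaves the 3′ end of the 35S transcript, and its covered share averaged 0% in the combined mutants, against 29.5% in the 7 others (exact permutation p 0.0424, adjusted p 0.179). This was the smallest adjusted p of the list. Sen1-AID replicate 1 was at 100% and the rest of the 7 at 12.8 to 24.3%. Members of the list differed in both directions, such as RRN10 by 25.0 points and RPA14 by -28.6 points. FOB1, SIR2, RRN3 and UAF30 had no peak in any list. In the comparison of the combined mutants 13 of the 28 were tested and 0 passed in either direction, with a median difference of -0.55 points, against -11.6 points over all genes tested.

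Genes with a rank profile like that of RRT15 were sought after its values were seen. Over 14 libraries, with a gene without a peak set at 0, the mean absolute difference in percentile was 12.3 points for FMP25, which shares its peak with RPL10, 16.7 for COQ21 with LSR1, and 16.9 for RPL27B with SNR13. DAS1 with SNR128, SNR190 and RPA34 followed at 17.8, and CMC4 with RPL36A and SNR11 at 18.2. RPL10, a gene for a protein of the large ribosomal subunit, lacked its peak in the same 2 libraries as RRT15. In h1D-h2D Top1-AID replicate 2 its percentile was 66.1, where that of RRT15 was 100.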

How the data were processed

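Each deposited file lists the Rad52 peaks of 1 library by position, with the authors' score for each peak. Per the submitters' processing notes, the authors used Bowtie2 and MACS2 on sacCer3, without versions. The deposited score has no stated scale, and the lowest in each list was just above 50.0. Positions were made 1-based, and 5 mitochondrial peaks in 2 lists were left out. Genes came from the RefSeq R64 table, of the same assembly. For each gene the share of its length under peaks was tested between groups of auxin libraries by exact two-sided permutation over 165 to 462 splits, adjusted by Benjamini and Hochberg at 0.05 over all genes with a peak. A gene counted as touched at 1 bp. The members and lists were chosen with earlier results of these data known. Genes named were drawn from the window, the lists and 5 genes of like profile, with those that share a peak with these or bound the peak-free stretch. The rule for like profiles could not single out a gene for RDN37-1, so RRT15 was used. The test was tried on simulated data. Python 3.11.15, numpy 2.4.6 and pandas 2.3.3 were used.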

Additional observations from a re-analysis of the deposited data

Results flagged for a closer look

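Both values named here came from Sen1-AID replicate 1, which had the longest list, 731 peaks, and the widest median peak, 2258 bp. Among the 7 auxin libraries outside the combined mutants, its peak-free stretch around the rDNA repeats was far shorter than those of the others, at 45.9 kb. Its peak at RRT15 ended 473 bp past that gene, farther than in the other 6. Of 8 sets of values examined in this way, chance flags about 1 in 20.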

How the results depend on the processing

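The covered length of both rDNA repeats was 0 bp in all lists with only peaks above the pooled median score, with lists cut to the 254 best-scoring peaks, and with peaks within 1 kb joined. These outcomes were fixed in advance and are no check on the absence. A score limit and shorter lists only remove peaks. The peak-free stretch around the repeats, 45.9 kb or longer in each list, is too long to be joined over. The mean covered length of the window was 4629 bp over 14 libraries and 4180, 4001 and 4694 bp under these settings. The count of 174 genes with a lower share in the combined mutants was 174 with joined peaks. It was 0 at the stricter score limit, 0 with equal list lengths, 0 when a gene counted only with at least 50% of its length covered and 0 with the replicate number as a block. There the smallest adjusted p-values (exact permutation) were 0.0956, 0.0944, 0.0555 and 0.078. With libraries left out in turn it was between 0 and 352, at 352 without Sen1-AID replicate 2 and 0 in each other case, and the count of genes with a higher share was between 0 and 1. Fewer splits remain without a library or with the block, so a count of 0 there cannot be told apart from the coarser test. For the other comparisons all counts stayed at 0. None of 7 window genes (RDN5-4, RDN5-6, YLR157C-B, YLR161W, YLR162W, RRT15 and ASP3-3) passed under any setting. With libraries left out in turn, the difference for Sen1 depletion lay between -20.1 and 18.5 points at YLR162W and between -25.0 and 14.3 at RRT15, above 0 only without h1D-h2D Sen1-AID replicate 1. That for Top1 depletion lay between -38.2 and 11.8 points at YLR162W and between -37.5 and 12.5 at RRT15, above 0 only without h1D-h2D Top1-AID replicate 1. At ASP3-3 it lay between -1.17 and 1.13 points, above 0 without either h1D-h2D Top1-AID library or WT replicate 1, and at RDN5-4 between -26.8 and 23.2, below 0 only without Top1-AID. The Gal-HO difference in covered length, 271.5 bp, was 2777 bp without galactose replicate 1 and -2234 bp without replicate 2. The cause of these turns was not tested. The libraries were not treated as paired by replicate number, since not every correlation of the replicate differences between strains over genes was above 0.1. Sen1-AID, h1D-h2D and WT correlated with each other at 0.252 to 0.412, and the other 7 of 10 strain pairs lay between -0.026 and 0.0779.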
